A study of Mus musculus with 4 samples.

Results

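Expression of 10 genes of fibroblast growth factor (FGF), pleiotrophin and midkine signaling was examined in C2C12 myoblasts with and without knockdown of *Hnrnpl*. The 10 genes, out of 56748 gene IDs counted, encode 5 secreted ligands (*Ptn*, *Mdk*, *Fgf7*, *Fgf2* and *Fgf21*), 3 receptors (*Fgfr1*, *Fgfr4* and *Ptprz1*) and 2 cell surface heparan sulfate proteoglycans (*Sdc2* and *Sdc4*). The set was selected on the measured knockdown against scrambled difference of *Ptn* and *Fgf7*, which lay far higher in knockdown. The difference between knockdown and scrambled is therefore given for these 10 genes as a description with no p-value, and how many of them meet the thresholds used for all genes is a count fixed in part by that choice.

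C2C12 is an established mouse myoblast line, labelled wild type, and *Hnrnpl* encodes an RNA-binding protein that takes part in splicing and mRNA stability. The scrambled group carried a control shRNA and the knockdown group a mixture of 3 shRNAs against *Hnrnpl*, each from a plasmid that also encoded eGFP, and both groups went through puromycin selection at 3 µg/mL. Each group had 2 direct RNA libraries, in which the native RNA strand is read through a nanopore, and the labels place 1 library of each group in batch 1 and the other in batch 2. Both libraries of a group were passages of 1 selected stable line, so the selected line and the knockdown cannot be told apart, and the spread between libraries is the spread between passages.

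Counted reads numbered from 1229424 to 1676911 per library, which was 56.5% to 57.8% of all reads. At this depth a count of 0 allows up to 1.79 to 2.44 CPM (the standard scaling of counts to a common library total) in a library, taking 3 reads as the limit, and this limit covers counting error only. *Hnrnpl* had 358 and 656 reads in the scrambled libraries and 242 and 258 in the knockdown libraries. The knocked down gene was thus lower in both knockdown libraries, with a log2 change of -0.78 and a standard error (SE) of 0.18 (adjusted p = 0.0112, edgeR quasi-likelihood test with Benjamini-Hochberg adjustment). It was not called in 3 of 12 alternatives, and without scrambled 2, the library with the most *Hnrnpl* reads, its log2 change was -0.48 and its adjusted p 0.194, the highest of a range from 1.86e-05. Of 6 myoblast markers all had reads, with summed levels of 15011 and 15806 CPM in scrambled and 13449 and 14492 CPM in knockdown, nearly all of it *Vim*, the general mesenchymal gene vimentin. The other 5 markers summed to 466 and 549 CPM in scrambled and 359 and 303 CPM in knockdown, and the defining factor *Myod1* had 1 read in all. *Cdh15*, the M-cadherin of myoblasts, went from 113 and 152 reads to 25 and 14 (log2 change -2.55, SE 0.24), and *Des*, desmin, from 373 and 571 to 309 and 242 (log2 change -0.56, SE 0.15). Both fell by the thresholds given below (adjusted p = 2e-06 and 0.0308, edgeR), *Cdh15* in 12 and *Des* in 7 of 12 alternative settings, and their part in the levels of the ligands was not tested. *Des* was not called with the batch as a replicate block (adjusted p = 0.0526 in edgeR, with a range from 0.00538 to 0.297 over the alternatives). Of 16 markers of macrophages, endothelial, epithelial, neural and fat cells, 7 had reads, 4 to 6 reads per library in sum (2.88 to 3.58 CPM in scrambled and 3.64 to 4.07 CPM in knockdown), and *Ptprc*, *Adgre1*, *Itgam*, *Pecam1*, *Epcam*, *Cdh1*, *Rbfox3*, *Snap25* and *Plin1* were at 0. Fewer cells with a transcript and less of it per cell cannot be told apart in these bulk RNA samples.

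Most FGFs are secreted proteins that bind FGF receptors, which are tyrosine kinases, together with heparan sulfate, a sulfated sugar chain on cell surface and matrix proteoglycans, whereas a few members of the family, FGF11 among them, stay inside the cell. The adaptor FRS2 then passes the signal to the RAS, MEK and ERK kinases, and sprouty proteins and dual specificity phosphatases hold it in check. In muscle precursor cells FGF signaling through FGFR1 is known to favor proliferation and to hold back differentiation, and syndecans act as coreceptors. Pleiotrophin and midkine form a separate 2-member family of heparin-binding growth factors, whose known receptors include the phosphatase PTPRZ1, the kinase ALK, syndecans, LRP1 and nucleolin.

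The promoters of *Ptn* and *Fgf7*, the genes with the large differences, are shown with that of *Sdc4*, a gene of the set at similar levels in both groups. The sequences are from RefSeq (GRCm38.p6 table), which matched 7 of the 10 genes by symbol, *Mdk*, *Fgfr1* and *Sdc2* being without an entry. Each runs from 250 bases before to 50 bases after the RefSeq transcription start, was found exactly once in GRCm39, and is printed 5′ to 3′ on the strand of the gene. That of *Ptn* lies at chr6:36787065-36787364 on the minus strand, that of *Fgf7* at chr2:125876328-125876627 on the plus strand and that of *Sdc4* at chr2:164285059-164285358 on the minus strand. Capitals mark motifs searched on both strands, which were the TATA box (TATAAA), the E-box core that myogenic factors are known to bind (CANNTG), the GC box (GGGCGG), the CAAT box (CCAAT), the AP-1 site (TGANTCA) and 3 units of the CA repeat (CACACA).
Ptn: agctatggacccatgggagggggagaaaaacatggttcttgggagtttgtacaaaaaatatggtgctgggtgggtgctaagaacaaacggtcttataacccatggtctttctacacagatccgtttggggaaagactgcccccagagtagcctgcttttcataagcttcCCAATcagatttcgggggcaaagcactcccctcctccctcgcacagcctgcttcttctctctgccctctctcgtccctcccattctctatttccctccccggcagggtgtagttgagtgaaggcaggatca
Fgf7: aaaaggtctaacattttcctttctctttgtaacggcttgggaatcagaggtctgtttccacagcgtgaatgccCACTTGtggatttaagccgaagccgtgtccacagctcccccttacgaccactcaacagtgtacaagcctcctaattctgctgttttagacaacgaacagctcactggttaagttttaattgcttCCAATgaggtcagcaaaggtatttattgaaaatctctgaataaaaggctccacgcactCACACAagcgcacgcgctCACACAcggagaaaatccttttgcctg
Sdc4: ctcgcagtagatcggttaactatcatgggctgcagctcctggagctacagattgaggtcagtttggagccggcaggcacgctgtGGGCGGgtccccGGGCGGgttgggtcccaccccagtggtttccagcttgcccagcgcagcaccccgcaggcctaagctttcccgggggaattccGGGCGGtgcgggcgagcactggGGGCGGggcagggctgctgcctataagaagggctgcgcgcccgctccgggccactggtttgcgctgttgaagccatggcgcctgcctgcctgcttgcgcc
The *Ptn* window held 1 CCAAT and none of the other motifs, and the *Fgf7* window held 1 CCAAT, 1 CANNTG and 2 CACACA. Neither held GGGCGG, which the *Sdc4* window held 4 times. Of 8473 windows of genes that were tested here, 37.9% held CCAAT, 61.2% CANNTG, 66.4% GGGCGG, 15.4% CACACA, 6.72% TATAAA and 4.74% TGANTCA. The windows of *Ptn* and *Fgf7* had a GC content of 52% and 45.7%, against a median of 61.67% over those windows, and 67.7% in the *Sdc4* window. In all, 16.6% of the windows were at or below the GC content of *Ptn* and 5.54% at or below that of *Fgf7*. The *Ptn* and *Sdc4* windows lie inside the genes as GENCODE vM39 draws them, since that annotation holds starts further upstream. Transcription starts were not measured, and a match of letters is a description only.

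Of the 10 genes, 7 had reads and 3 had none in any library. In total 3319 reads fell on them. The filter on low counts kept 8670 genes for testing, among them *Ptn*, *Fgf7*, *Fgfr1*, *Sdc2* and *Sdc4*, while *Fgf2* and *Mdk* had too few reads. A gene was called when its adjusted p was under 0.05, its absolute log2 fold change over 0.5 and its mean normalized count over 10, where normalized counts are counts scaled by the TMM method to the mean library size. Over all genes tested 5.55% were called, and 2.33% were called higher in knockdown. Of the 5 genes of the set that entered the fit, *Ptn* and *Fgf7* (2 genes) met these thresholds, both higher in knockdown. The set was selected on this difference in these genes, and *Ptn* passed the filter only through its knockdown libraries, so nothing is read from that count. In these 2 genes the groups did not overlap, as in 52.4% of all genes tested.

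**Figure D1:**
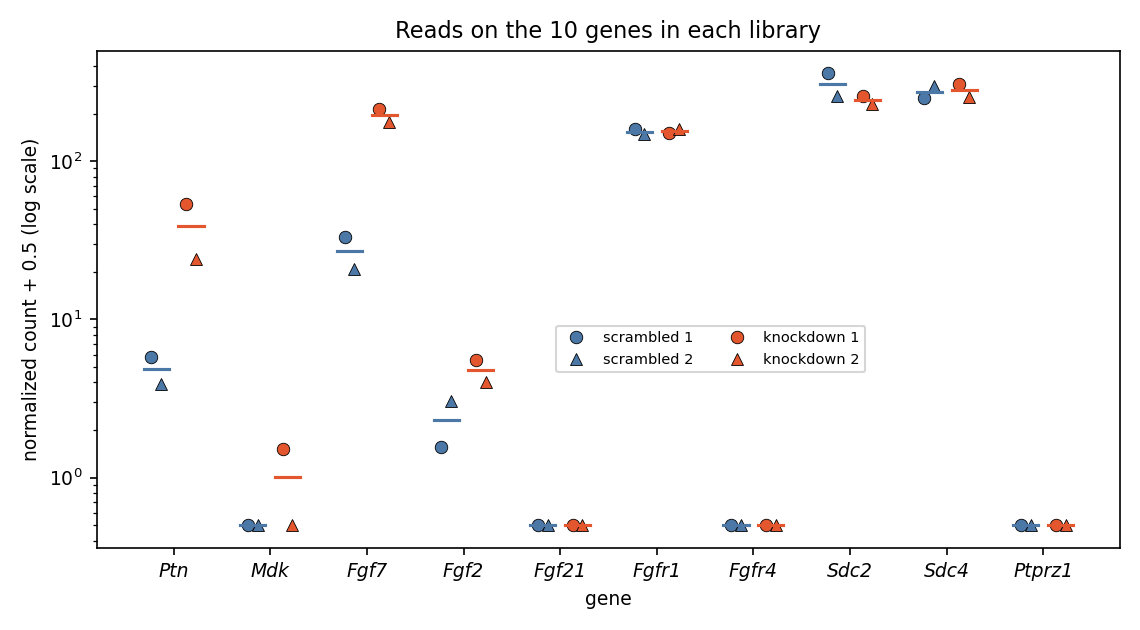
Normalized counts plus 0.5 (log axis) of the 10 genes in each of the 4 libraries, with scrambled in blue, knockdown in red, circles for libraries 1 and triangles for libraries 2, and a line at each group's mean. The *Ptn* and *Fgf7* points of knockdown lie above those of scrambled, whereas *Fgfr1*, *Sdc2* and *Sdc4* overlap between the groups and *Fgf21*, *Fgfr4* and *Ptprz1* sit at 0 reads.

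*Ptn* (ENSMUSG00000029838.12, GRCm39 chr6:36680960-36796991, minus strand) encodes pleiotrophin, a growth factor that binds heparin. It had 5 and 4 reads in scrambled 1 and 2 and 53 and 20 reads in knockdown 1 and 2. Both knockdown libraries were above both scrambled libraries, and the knockdown libraries differed 2.26-fold from each other after normalization. In normalized counts this was 4.35 ± 1.34 (SD, n = 2) in the scrambled group against 38.5 ± 21.0 (SD, n = 2) in the knockdown group. The fitted log2 fold change was 3.17 with an SE of 0.50, and the ratio of the group means was 8.86. Within batch 1 the knockdown library was 10.1-fold higher than the scrambled library, and within batch 2 it was 6.95-fold higher. The log2 fold change was 2.44 without knockdown 1, the library with the most *Ptn* reads. The exact 95% Poisson intervals, which cover counting error only, ran from 1.17 to 8.41 CPM and from 0.650 to 6.11 CPM in the scrambled libraries, and from 28.9 to 50.4 CPM and from 9.94 to 25.1 CPM in knockdown 1 and 2. The median log2 fold change of the genes on chromosome 6 was 0.28, and with this shift removed the log2 fold change of *Ptn* was 2.90.

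*Mdk* (ENSMUSG00000027239.15, chr2:91760143-91762846, minus strand) encodes midkine, the other growth factor of the family. It had 1 read, in knockdown 1, and 0 in the other libraries. Pleiotrophin thus supplied all or nearly all reads of the family in every library, from 98.1% in knockdown 1 to 100% in the others. With 5 and 4 family reads in scrambled 1 and 2, the 95% Wilson interval of that share still began at 56.6% and 51.0% there, and it began at 83.9% in knockdown 2.

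*Fgf7* (ENSMUSG00000027208.15, chr2:125876578-125934218, plus strand) encodes FGF7, or keratinocyte growth factor, a ligand made by mesenchymal cells that acts mainly on the epithelial form of FGFR2. It had 31 and 24 reads in the scrambled libraries and 211 and 149 reads in the knockdown libraries. The groups lay far apart, and the knockdown libraries differed 1.21-fold after normalization. Normalized counts were 26.6 ± 8.77 (SD, n = 2) in the scrambled group against 194 ± 25.8 (SD, n = 2) in the knockdown group. The fitted log2 fold change was 2.90 (SE 0.22), a 7.44-fold difference, and it lay between 2.56 and 3.25 when single libraries were left out. The knockdown library was 6.48-fold higher in batch 1 and 8.62-fold higher in batch 2. The median of chromosome 2 was -0.05.

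**Figure D2:**
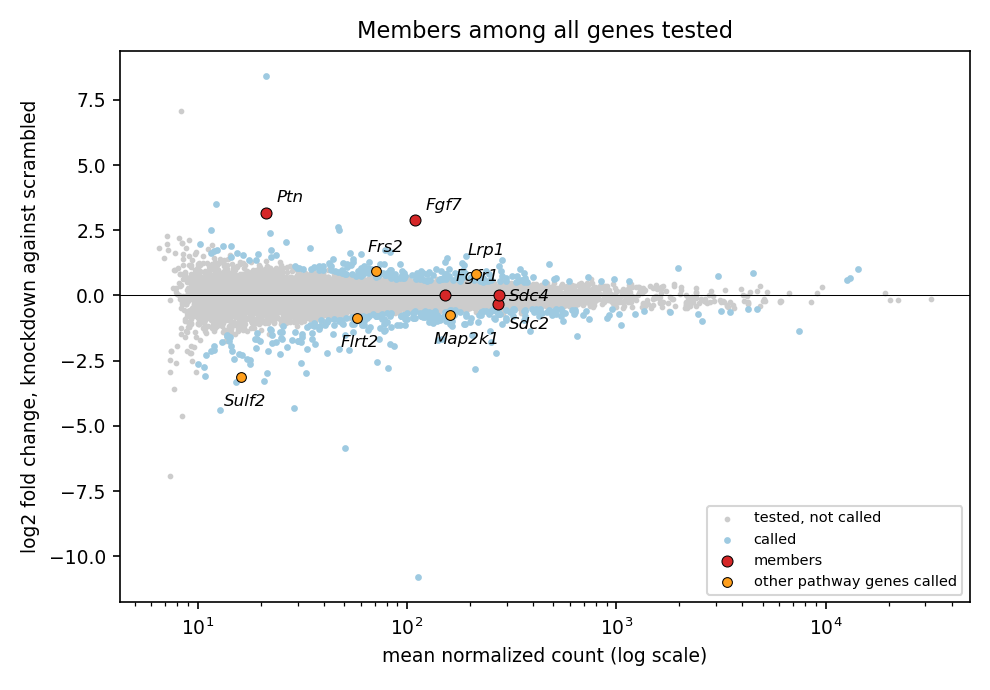
The log2 fold change of knockdown against scrambled over the mean normalized count (log axis) for the 8670 genes tested, with called genes in light blue, the 5 tested genes of the set in red and 5 other called pathway genes in orange. *Ptn* and *Fgf7* stand at 3.17 and 2.90, and *Fgfr1*, *Sdc2* and *Sdc4* lie near 0.

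*Fgf2* (ENSMUSG00000037225.14, chr3:37402473-37464257, plus strand) encodes basic FGF, a mitogen of myoblasts. It had 1 and 3 reads in scrambled and 5 and 3 reads in knockdown, 12 in all, and was too low to be tested. Its rate per counted read was 2.35 times as high in knockdown, with a 95% interval for counting error from 0.631 to 10.7, which takes in ratios below and above 1. *Fgf2* shares exon bases with *Gm43439* on its own strand and with *Nudt6* on the other, and reads that touch more than 1 gene are set aside by the counting as ambiguous. Of 10 annotated *Fgf2* transcript ends, 10 touched another gene when strand was ignored and 7 when it was used, so some of its reads may be missing from the counts, while for *Ptn*, *Fgf7*, *Sdc2* and *Sdc4* no end did so and for *Fgfr1* 4 of 29 did with strand ignored.

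*Fgf2* was also the only gene of the 10 with an uninterrupted run of 6 or more CA units in an annotated transcript. CA repeats and CA-rich clusters are known to bind hnRNP L, the protein encoded by *Hnrnpl*. The run is 11 units (22 bases) long, lies in the 3′ untranslated region at chr3:37459664-37459685 on the plus strand and is held by 3 of 10 *Fgf2* transcripts. It is printed with 4 bases on each side, with the repeat in capitals.
Fgf2: gagaCACACACACACACACACACACAaaca
Such a run was found in 15.8% of 8663 genes tested, and in no annotated transcript of *Ptn* or *Fgf7*. Introns, shorter runs and CA-rich clusters were not searched, so whether hnRNP L can bind transcripts of *Ptn* or *Fgf7* was not tested.

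*Fgf21* encodes an endocrine FGF, and it had no read in any library. Together with *Fgfr4* and *Ptprz1* it is below 0.529 CPM over the 4 libraries combined, taking 3 reads as the limit. Of the 19 FGF family genes outside the set, 4 of which (*Fgf11*, *Fgf12*, *Fgf13* and *Fgf14*) encode intracellular proteins, 15 also had no read and none had enough to be tested. The 4 with reads were *Fgf5*, *Fgf10*, *Fgf11* and *Fgf18*, named after their values were seen, and the highest count among them was 6 reads, on *Fgf11* in knockdown 1. The reads of all 22 FGF family genes added up to 26.7 and 21.5 CPM in the scrambled libraries and to 163 and 129 CPM in the knockdown libraries. Of the reads on the 18 genes for secreted FGFs, *Fgf7* held 88.6% (95% Wilson interval 74.0% to 95.5%) and 77.4% (60.2% to 88.6%) in scrambled 1 and 2. In knockdown 1 and 2 it held 96.8% (93.5% to 98.4%) and 96.8% (92.6% to 98.6%). *Fgf7* was therefore the main secreted FGF transcript among the reads counted in each of the 4 libraries. The intervals cover counting error only. Reads set aside as ambiguous, which *Fgf2* may have lost, do not enter these shares.

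*Fgfr1* (ENSMUSG00000031565.19, chr8:26003670-26066824, plus strand), the receptor for many FGFs, had 151 and 173 reads in scrambled and 149 and 134 in knockdown. Normalized counts were 153 ± 8.98 (SD, n = 2) and 154 ± 5.83 (SD, n = 2), so the group means differed by less than the spread within a group. The fitted difference was 0.01 on a log2 scale (SE 0.16). *Fgfr4*, the other FGF receptor known in muscle precursors, had 0 reads in all libraries. Of the reads on the 4 FGF receptor genes, *Fgfr1* held 98.7% and 94.5% in scrambled and 94.9% and 93.7% in knockdown. *Fgfr2*, whose epithelial form is the main receptor for FGF7, had 1 and 3 reads in scrambled and 6 and 4 in knockdown, and reads per gene do not separate its forms. *Ptprz1*, the receptor phosphatase for pleiotrophin, had no reads, and *Alk* had 1, in knockdown 1.

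*Sdc2* (ENSMUSG00000022261.7, chr15:32920699-33035213, plus strand) encodes syndecan-2, a transmembrane heparan sulfate proteoglycan. It had 339 and 303 reads in scrambled and 257 and 194 in knockdown. Scrambled 1 was the highest library, while scrambled 2 and knockdown 1 were nearly equal after normalization (258 and 259 normalized counts). The group values were 308 ± 71.5 (SD, n = 2) in the scrambled group against 244 ± 21.0 (SD, n = 2) in the knockdown group, and the fitted difference was -0.33 on a log2 scale (SE 0.17). It was -0.08 without scrambled 1 and -0.56 without scrambled 2, so its size rests on single libraries.

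*Sdc4* (ENSMUSG00000017009.4, chr2:164266025-164285807, minus strand) encodes syndecan-4, a coreceptor for FGF2 that is found on muscle satellite cells. It had 235 and 353 reads in scrambled and 306 and 215 in knockdown. The knockdown library was 1.24-fold higher in batch 1 and stood at 0.846 of the scrambled library in batch 2, so the batches went in opposite directions. The groups overlapped, with 274 ± 36.4 (SD, n = 2) and 281 ± 38.3 (SD, n = 2) normalized counts, and the fitted difference was 0.03 on a log2 scale (SE 0.16). The share of *Sdc2* among the reads on the 4 syndecan genes was 47.7% (95% Wilson interval 44.0% to 51.4%) in scrambled 1 and 37.3%, 35.3% and 36.4% in scrambled 2, knockdown 1 and knockdown 2, so that scrambled 1 stood apart from the other 3 libraries. *Sdc1* held between 19.2% and 23.3% in every library, and *Sdc3* had 1 read in all.

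**Figure D3:**
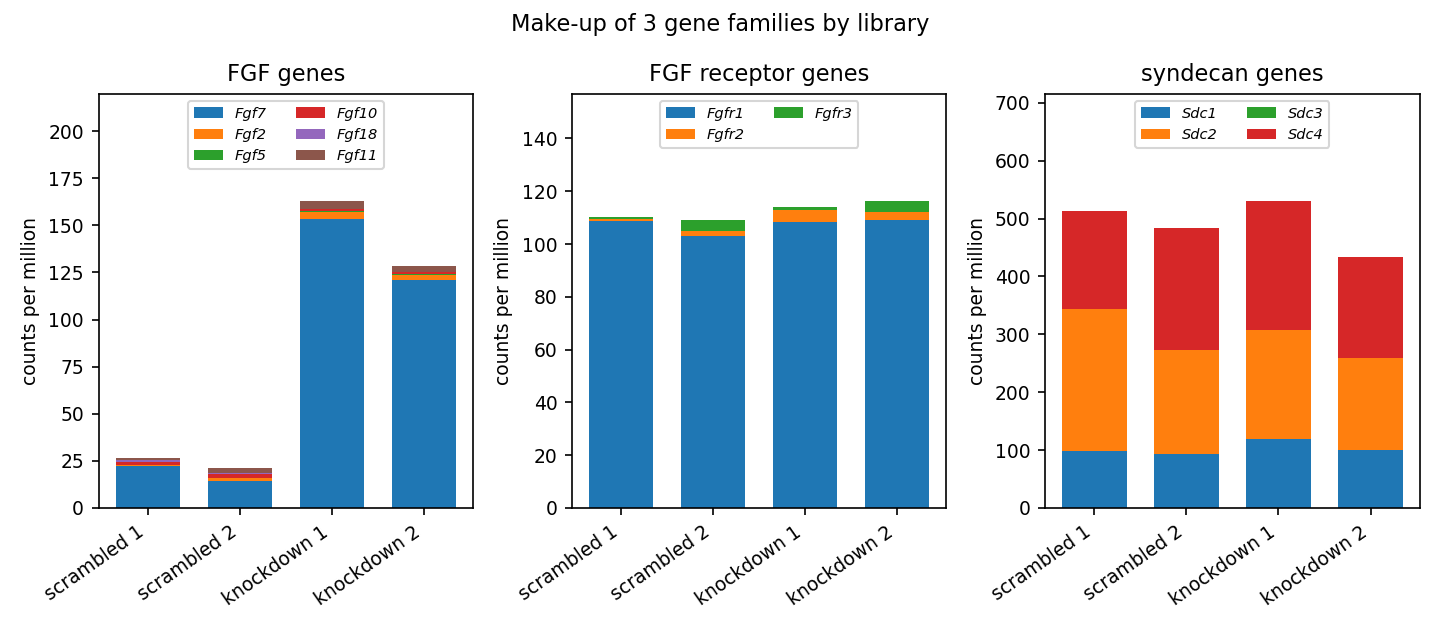
Stacked bars of CPM on the FGF, FGF receptor and syndecan genes in each library, each panel with its own axis from 0, and colors for the genes with reads. The FGF total is 163 and 129 in knockdown against 26.7 and 21.5 in scrambled, most of it *Fgf7*, while the receptor and syndecan totals are of similar height in the 4 libraries.

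Levels of the genes were set beside one another on 2 scales. A direct RNA read is 1 strand of RNA, so CPM are given first, and CPM per kilobase of the longest annotated transcript second. In scrambled the order in CPM was *Sdc2* (213), *Sdc4* (190), *Fgfr1* (106), *Fgf7* (18.3), *Ptn* (2.99), *Fgf2* (1.25) and *Mdk*, which had no read there. *Sdc2* and *Sdc4* overlapped between the libraries on both scales and changed places per kilobase, where *Sdc4* was at 67.6 and *Sdc2* at 54.9. The other positions were the same per kilobase, with *Fgfr1* at 17.2, *Fgf7* at 4.85, *Ptn* at 0.986 and *Fgf2* at 0.199. In knockdown the order on both scales was *Sdc4* (199 CPM), *Sdc2* (172), *Fgf7* (137), *Fgfr1* (109), *Ptn* (27.4), *Fgf2* (3.04) and *Mdk* (0.364). *Fgf7* thus stood below *Fgfr1* in scrambled and above it in knockdown. In knockdown 1 and 2 *Fgf7* was at 153 and 121 CPM and *Fgfr1* at 108 and 109 CPM, and per kilobase *Fgf7* was at 40.6 and 32.1 and *Fgfr1* at 17.6 and 17.7, so the size of the gap between them depends on the scale. *Sdc2* was at 187 and 158 CPM in knockdown, above both values of *Fgf7*, and at 48.3 and 40.8 per kilobase, where the lower *Sdc2* value and the higher *Fgf7* value nearly met.

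The genes with the profile most like those of *Ptn* and *Fgf7* were found by the Euclidean distance between centred log2(normalized count + 0.5) values over the 4 libraries, among 8499 genes. For *Fgf7* these were *Cavin2* (distance 0.468), *Ptn* (0.634) and *Actg2* (0.843). For *Ptn* they were *Fgf7* (0.634), *Cavin2* (0.882) and *Sh2d1b1* (1.27). *Cavin2*, a coat protein gene of caveolae, had 19 and 11 reads in scrambled and 85 and 64 in knockdown. *Actg2*, the enteric smooth muscle actin gene, had 4 and 3 reads in scrambled and 15 and 21 in knockdown. *Sh2d1b1*, an adaptor gene of natural killer cells, had 10 and 18 reads in scrambled and 75 and 74 in knockdown. With 4 libraries in 2 groups this measure chiefly picks genes with a log2 fold change near that of the gene it starts from, here 2.50, 2.53 and 2.61.

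A list of 114 further genes of the same pathways showed how the rest of the pathway stood. Of these, 26 had no reads and 63 were tested, of which 30 lay higher and 33 lower in knockdown. Their median log2 fold change was -0.02 beside -0.00059 over all genes tested. By the call thresholds 2 rose, *Lrp1* and *Frs2*, and 3 fell, *Sulf2*, *Map2k1* and *Flrt2*, which is 7.94% of those tested against 5.55% over all genes. At an unadjusted p under 0.05 there were 14, of which 8 were higher and 6 lower, and over all genes 21.8% were under that limit.

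**Figure D4:**
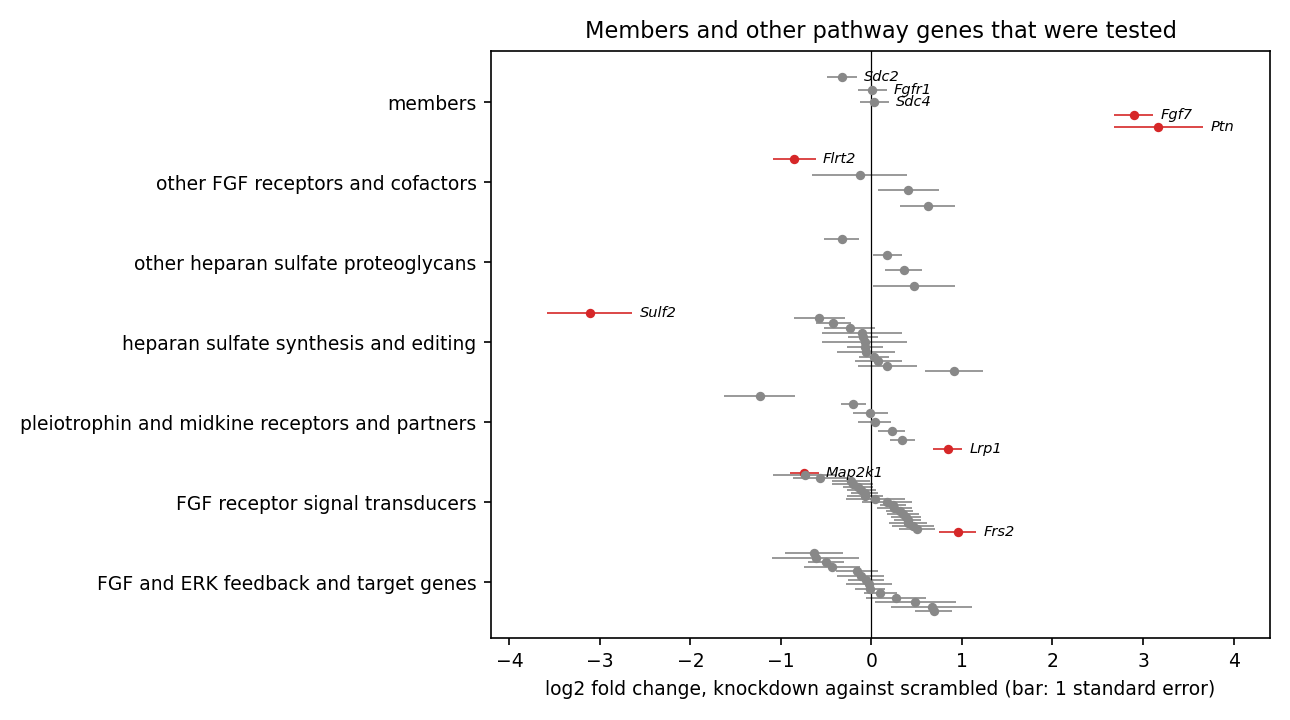
The log2 fold change with 1 standard error of each tested gene, in rows for the 5 tested genes of the set and 6 lists of other pathway genes, with called genes in red. Apart from *Sulf2*, *Ptn* and *Fgf7*, the values lie between -1.23 and 0.95, and the target gene list holds no called gene.

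Among the tested genes that build and edit heparan sulfate, *Sulf2* had the largest log2 change. It encodes an extracellular sulfatase that removes 6-O-sulfate groups from heparan sulfate, groups on which binding of FGFs and their receptors depends. *Sulf2* had 27 and 35 reads in scrambled and 3 and 3 in knockdown. This was a fall, with a log2 change of -3.11 (SE 0.47, adjusted p = 0.000549, edgeR) and both knockdown libraries below both scrambled libraries. Its adjusted p lay between 3.54e-08 and 0.0258 over 11 alternative settings. *Sulf2* passed the filter on low counts only through its scrambled libraries, and the setting with 10 or more counts in each library did not test it. Of 27 *Sulf2* transcript ends, 21 touched another gene when strand was ignored and 0 when it was used, and the strand setting of the counting is not given in the sources used here. Of the 13 tested genes of this list, *Sulf2* was the only one called, 4 lay higher and 9 lower. *Ext1*, a polymerase of the chain and the one with the highest mean normalized count, had 141 ± 15.8 (SD, n = 2) normalized counts in scrambled and 132 ± 7.18 (SD, n = 2) in knockdown, with an adjusted p of 0.790 in edgeR.

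Of 11 other heparan sulfate proteoglycan genes 4 were tested, and none was called or had an unadjusted p under 0.05 in edgeR. *Sdc1*, syndecan-1, had the highest mean normalized count, with 139 ± 8.72 (SD, n = 2) normalized counts in the scrambled group, 156 ± 13.9 (SD, n = 2) in the knockdown group and a log2 change of 0.18 (SE 0.16, adjusted p = 0.567, edgeR).

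Of 11 other receptors and partners of pleiotrophin and midkine 7 were tested, and 1 was called. *Lrp1*, a large endocytic receptor that binds midkine and pleiotrophin, had 146 and 181 reads in scrambled and 307 and 205 in knockdown. *Lrp1* rose, with a log2 change of 0.84 (SE 0.16, adjusted p = 0.00364, edgeR), and was higher in both batches. It lies on chromosome 10, whose median log2 fold change was 0.24. With the chromosome medians removed *Lrp1* was at 0.60 and was still called (adjusted p = 0.0435, edgeR). The adjusted p lay between 7.27e-05 and 0.0788 over 12 alternatives, and the call was lost without knockdown 1. *Ncl*, nucleolin, a nucleolar protein that also binds these growth factors at the cell surface, had the highest mean normalized count of the list, at 1133 ± 50.2 (SD, n = 2) and 1437 ± 164 (SD, n = 2) normalized counts, and it did not pass the adjusted test (log2 change 0.34, SE 0.14, adjusted p = 0.152 in edgeR).

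Of 10 other FGF receptor and cofactor genes 4 were tested. *Flrt2*, a transmembrane protein of a family that binds FGF receptors, had the highest mean normalized count and was the one called. It had 80 and 78 reads in scrambled and 36 and 40 in knockdown. *Flrt2* fell, with a log2 change of -0.85 (SE 0.24, adjusted p = 0.0375, edgeR). This call was kept in 7 of 12 alternatives, with adjusted p between 0.0112 and 0.543, and was lost without scrambled 1 (0.175) and without knockdown 1 (0.241).

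Of 25 genes that pass on the signal of FGF receptors 21 were tested, 12 of them higher and 9 lower, at a median of 0.18 on a log2 scale. *Frs2*, the docking protein that FGF receptors phosphorylate, had 50 and 53 reads in scrambled and 96 and 78 in knockdown. *Frs2* rose, with a log2 change of 0.95 (SE 0.20, adjusted p = 0.00762, edgeR) and adjusted p from 0.00131 to 0.259 over 12 alternatives, of which 7 were under 0.05. The median log2 fold change of chromosome 10, on which *Frs2* lies, was 0.24, and with the chromosome medians removed *Frs2* was at 0.71 and was no longer called (adjusted p = 0.0583, edgeR), nor was it without scrambled 2 (0.0538) or without knockdown 1 (0.0664). *Map2k1*, which encodes the ERK kinase MEK1, had 187 and 244 reads in scrambled and 119 and 104 in knockdown. *Map2k1* fell, with a log2 change of -0.74 (SE 0.16, adjusted p = 0.00798, edgeR). The median log2 fold change of chromosome 9, on which *Map2k1* lies, was -0.37, and with the chromosome medians removed *Map2k1* was at -0.38 and was no longer called (adjusted p = 0.266, the highest of 12 alternatives, the lowest being 0.00209), and the call was also lost without knockdown 1 (0.0781). Of 19 *Map2k1* transcript ends, 8 touched another gene with strand ignored and 0 with strand used. *Akt1*, the transducer with the highest mean normalized count (not divided by length), had 330 ± 21.1 (SD, n = 2) and 305 ± 59.4 (SD, n = 2) normalized counts in scrambled and knockdown (adjusted p = 0.729, edgeR).

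The last list held genes known to be induced by FGF and ERK signaling and its feedback inhibitors. Of these 18 genes all had reads and 14 were tested, of which 5 lay higher and 9 lower, with a median of -0.04. None was called by edgeR, and 2 had an unadjusted p under 0.05, 1 higher and 1 lower. The higher one was *Dusp6*, the ERK phosphatase, with 91 and 71 reads in scrambled and 133 and 97 in knockdown (log2 change 0.69, SE 0.21, adjusted p = 0.0519, edgeR), named after its values were seen. With the batch as a replicate block its adjusted p was 0.0330, which brought the number of pathway genes called to 6, and over 12 alternatives it lay between 0.00163 and 0.620. The lower one was the transcription factor gene *Etv4*, also named after its values were seen, with 141 and 184 reads in scrambled and 83 and 114 in knockdown (log2 change -0.50, SE 0.19, adjusted p = 0.136, edgeR). The highest mean normalized count was that of *Myc*, at 141 ± 17.7 (SD, n = 2) and 139 ± 2.56 (SD, n = 2) normalized counts, with an adjusted p of 0.968 in edgeR.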

How the data were processed

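Direct RNA reads of 2 scrambled and 2 knockdown libraries were used. After basecalling with guppy, the authors aligned to GRCm39 using minimap2 2.17 and assigned reads to genes using HTSeq 0.9.1 (versions from the submitters' processing notes). The deposited files hold whole counts, not normalized. The annotation release and the strand setting are not given in the sources used here. Reads touching more than 1 gene (16.0% to 16.5% of reads per library) and reads of low mapping quality (22.7% to 23.8%) were set aside by that counting and enter no library size. Of 56748 gene IDs, 56017 were found in GENCODE vM39, which gave symbols and positions.

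Counts were compared with edgeR 4.0.16 in R 4.3.3 (TMM, filterByExpr, quasi-likelihood test, Benjamini-Hochberg adjustment over all 8670 genes tested), and the script was tested on simulated data. The batch labels pair the libraries by number, and the correlation of deviations from the group means between same-numbered libraries was 0.0043 over 4503 genes, so the block was an alternative. Others were RLE factors, all genes with a count, genes with 10 or more counts in each library, DESeq2 1.42.0 with a local or parametric fit, mitochondrial genes and *Rn18s* left out, chromosome medians removed, and each of the 4 libraries left out in turn. P-values measure only the spread between passages. Transcript ends are the last 800 bases of annotated transcripts, mapped with minimap2 2.31-r1302 at a mapping quality of at least 10.

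The 10 genes, the pathway lists, the marker list and the alternatives were chosen with earlier results of these data known. Named are all 10 genes, *Hnrnpl*, called pathway genes, the tested gene of each pathway list with the highest mean normalized count, and the 3 nearest profiles of *Ptn* and *Fgf7* among tested genes with a mean normalized count over 10. Marker genes and the family members *Fgfr2*, *Alk* and *Sdc3* were named outside this rule, after their values were seen. Isoforms and proteins were not analysed here.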

Additional observations from a re-analysis of the deposited data

How the results depend on the processing

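Over all genes tested 481 were called, against 228 and 115 in DESeq2 with the local and parametric fit, 287 with chromosome medians removed, 484 with the replicate block, 612 with no filter on low counts, and 194 (without knockdown 1) to 433 when single libraries were left out. Of the 10 genes 2, on which the set was selected, met the call thresholds, a count that is a description and no evidence of stability. It was 1 among genes with 10 or more counts in each library, where *Ptn* was not tested, and between 1 and 2 when single libraries were left out, with *Ptn* below the thresholds without knockdown 1. The log2 fold change of *Ptn* lay between 2.44 and 3.61 and that of *Fgf7* between 2.56 and 3.25 when single libraries were left out. Of the other pathway genes 5 were called, against 3 and 2 in DESeq2 with the local and parametric fit, 2 with chromosome medians removed, 7 with no filter on low counts, and 1 (without knockdown 1) to 6 when single libraries were left out. *Fgfr1* was at 0.09 with chromosome medians removed. Of 24 tested genes named, 13 were called, and none of these 13 changed sign in the alternatives run. The alternatives refit the same libraries, and *Ptn*, *Fgf7* and the called pathway genes were named for this difference. The unchanged sign is thus no evidence of stability. At least 1 alternative did not call *Ptn*, *Hnrnpl*, *Lrp1*, *Frs2*, *Map2k1*, *Flrt2*, *Des* and *Actg2*, each taken singly. The replicate block changed the call of 2 of the 24, *Dusp6* and *Des*. The filter on low counts left *Fgf2* and *Mdk* out of the fit, and their few reads limit what can be compared. The cause of these shifts was not tested.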
